A study of Mus musculus with 6 samples.

Results

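The endothelin system comprises secreted peptide ligands, their receptors and the protease that releases the active peptides. It is represented here by 6 of the 46603 genes in the count tables, taken by symbol: the ligand genes Edn1, Edn2 and Edn3, the receptor genes Ednra and Ednrb, and Ece1, which encodes endothelin-converting enzyme 1. All 6 were found, and 5 of them carried enough counts to be tested. Edn2 did not.

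Neurosphere-derived enteric glial cells (EGCs), which surround the neurons of the gut, were profiled by bulk RNA sequencing of poly(A) RNA at rest and after activation with lipopolysaccharide (LPS, a component of bacterial cell walls). The study asked which factors EGCs provide to monocytes and macrophages. Intestines of C57BL/6J embryos at E14.5 were digested whole, expanded as free-floating neurospheres with EGF and FGF, and then grown as an adherent layer in serum until confluent. The 3 control cultures received no stimulus and the 3 LPS cultures received 100 ng/ml for 12 h, and no transgene, deletion or cell sort is described for either group. The labels number the cultures 1 to 3 within each group without saying whether they came from separate litters, so p-values measure the spread between these cultures, which may be technical.

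Libraries held 18775316 to 23664312 counts. All 6 glial markers were tested, at a summed 261 to 374 CPM (counts per 1e6 counts of the library) in control and 300.1 to 317 CPM in LPS, but the cultures were mixed: the 7 mesenchymal markers summed to 15500 to 16122 CPM in control and 15085 to 15730 CPM in LPS. Replicate 3 stood apart in both groups. The 12 macrophage markers summed to 4120, 5345 and 12705 CPM in control replicates 1, 2 and 3. In LPS replicates 1, 2 and 3 they summed to 4153, 5397 and 20410 CPM. Lyz2 led each of these sums, at 2888 to 7978 CPM in control and 2385 to 11480 CPM in LPS. The 8 smooth muscle markers were at 2325 to 2568 CPM in control and 677 to 972 CPM in LPS. Of the 7 tested, 6 were called lower, against 6.71% of all tested genes. Mesothelial markers summed to 63.2 to 95.4 CPM in control and 34.6 to 56.4 CPM in LPS. Endothelial markers summed to 40.9 to 75.3 CPM in control and 22.1 to 31.0 CPM in LPS. Sums of the glial, macrophage, mesenchymal, neuron and epithelial lists overlapped between the groups. No marker on these lists was at 0 in every library. In bulk RNA, fewer cells of a type and less RNA per cell cannot be told apart.

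Endothelins are made as long precursors, cut by furin-like convertases to big endothelins and then by ECE1 to short active peptides. EDNRA prefers endothelin-1 and endothelin-2, whereas EDNRB binds all endothelins about equally, and both are G protein-coupled receptors that signal through Gq and inositol trisphosphate. In the developing gut, endothelin-3 from the gut mesenchyme acts on EDNRB of neural crest cells and keeps them as proliferating progenitors while they colonise the bowel. Loss of either gene leaves the distal bowel without ganglia, as in Hirschsprung disease. Endothelin-1 is best known as a vasoconstrictor of the endothelium, and its receptors are also found on astrocytes and other glia.

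The ligands are close relatives, so it matters that their reads can be told apart. The active peptide of each is encoded within 1 exon by 63 bases, printed here with the 4 cysteine codons in capitals, since these cysteines form the paired disulphide bridges shared by the family. They were read from the coding strand of the GENCODE M21 transcripts (mouse genome GRCm38), at chr13:42303649-42303711 for Edn1, chr4:120161951-120162013 for Edn2 and chr2:174761749-174761811 for Edn3, all on the plus strand.
Edn1: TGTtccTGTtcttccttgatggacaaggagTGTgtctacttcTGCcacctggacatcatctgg
Edn2: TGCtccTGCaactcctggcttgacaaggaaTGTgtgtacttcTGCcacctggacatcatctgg
Edn3: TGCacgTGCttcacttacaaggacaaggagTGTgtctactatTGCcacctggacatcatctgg
Edn1 and Edn2 shared 53 of the 63 bases and 18 of the 21 residues encoded. Edn3 shared 50 bases with Edn1 and 48 with Edn2, and 15 residues with each of them. The identical 3′ part encodes the shared tail of the peptides. Even so, none of the 3 ligand transcript sets had a 50-base stretch in common with any other gene, so a read of that length could be assigned to 1 ligand.

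Edn1 lies at chr13:42301476-42307990 on the plus strand, Edn2 at chr4:120161206-120167360 on the plus strand, and Edn3 at chr2:174760619-174784042 on the plus strand. Ednra lies at chr8:77663031-77724464 on the minus strand, Ednrb at chr14:103814625-103844402 on the minus strand, and Ece1 at chr4:137862237-137965229 on the plus strand. All 6 are annotated as protein coding. An antisense gene overlaps Ednra (4933431K23Rik, 0 to 9 counts per library) and Ece1 (Gm13012, 3 to 38 counts per library). Whether counting used the strand is not stated, but these counts are small beside the 540 to 2136 counts of Ednra and the 2791 to 5080 of Ece1. Edn1 overlaps the antisense gene Gm47118, for which no value was used here.

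The ligand genes differed most between LPS and control, and Ednrb differed least. Edn3 fell after LPS, Edn2 was not detected there, and Edn1 had the higher value in LPS within each replicate number without passing the test. The means of Ednrb were nearly equal. Of the 5 genes tested, 1 was called lower (Edn3) and 0 were called higher by the edgeR quasi-likelihood test at a Benjamini-Hochberg adjusted p under 0.05. Over all 15226 genes tested, 6.71% were called lower, 9.09% higher and 15.8% in either direction. With 5 genes, 1 call is too few to tell their share from these. Edn3 was also the single one of the 5 with an unadjusted p under 0.05.

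**Figure D1:**
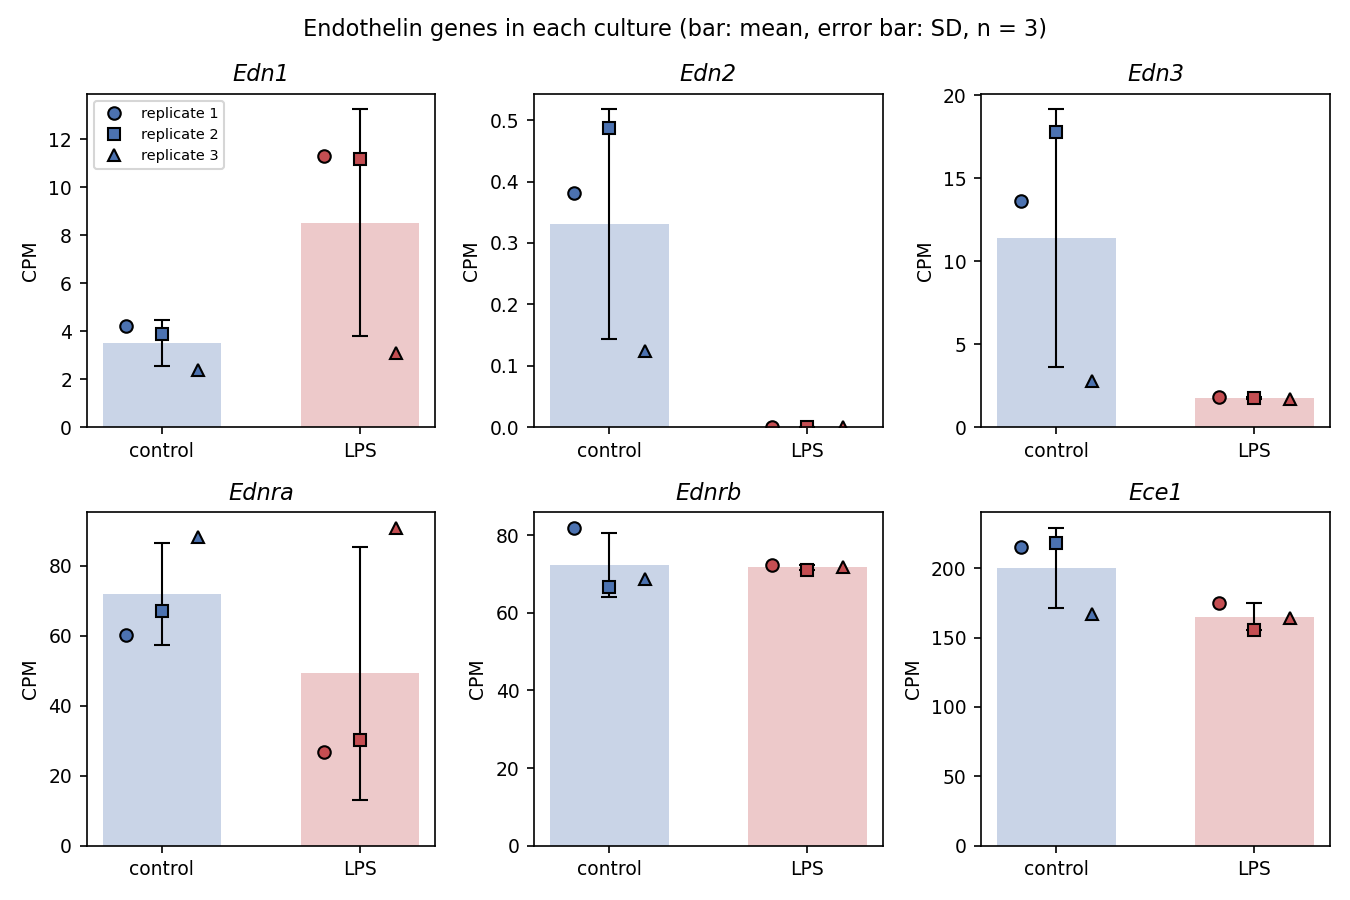
CPM of each endothelin gene in the 3 control and 3 LPS cultures; bars are means, error bars SD, and marker shapes give the replicate number. Edn3 is above every LPS culture in each control culture, Edn2 is at 0 in all LPS cultures, and replicate 3 lies apart from replicates 1 and 2 for Edn1 and Ednra, clearly so in LPS, and for Edn3 in control.

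Edn3, the ligand of the EDNRB pathway in gut development, was at 13.6, 17.8 and 2.77 CPM in control replicates 1, 2 and 3 and at 1.83, 1.78 and 1.67 CPM in LPS replicates 1, 2 and 3. The groups did not overlap, LPS cultures were nearly equal to each other, and control replicate 3 was close to them. Mean levels were 11.4 ± 7.75 CPM in control against 1.76 ± 0.0789 CPM after LPS (SD, n = 3). The log2 fold change was -2.69 (SE 0.67, 95% interval -4.34 to -1.03, edgeR adjusted p = 0.0480), and 0.401% of tested genes had as low a value or lower. LPS libraries lay below all control libraries in 19.4% of tested genes and above them in 19.3%.

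The size of the Edn3 difference varied with the culture. Control exceeded LPS 7.44-fold in replicate 1, 9.98-fold in replicate 2 and 1.65-fold in replicate 3. Control replicate 3, where Edn3 was low, had a high macrophage marker sum and low sums of the 6 neuron markers (199.9 CPM, with the other control cultures at 350.0 and 362.6 CPM) and the 6 glial markers (260.9 CPM, with the others at 331.9 and 374.4 CPM), and their part in the Edn3 level was not tested. The smooth muscle, mesothelial and endothelial marker sums also fell in LPS, and their part in the Edn3 result was not tested either. With replicates 1 and 2 of each group alone, a comparison added after the data were seen, the log2 fold change was -3.09 (edgeR adjusted p = 6.11e-05). Without control replicate 3 it was -3.13 (edgeR adjusted p = 0.00186). The call was lost when any other library was left out: the edgeR adjusted p was 0.135 without control replicate 1, 0.152 without control replicate 2, 0.138 without LPS replicate 1, 0.157 without LPS replicate 2 and 0.0861 without LPS replicate 3. Over all genes, the fits without replicate 1 or 2 of either group called 112 to 224 lower, against 1022 with all libraries. The fit without LPS replicate 3 called 1426 lower. The Edn3 call was also lost with limma-voom (log2 fold change -2.27, adjusted p = 0.200). In all of the 15 alternatives the value stayed between -3.13 and -2.20.

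Edn1, whose peptide binds EDNRA as well as EDNRB, had the opposite sign. It was at 4.24, 3.90 and 2.40 CPM in control replicates 1, 2 and 3 and at 11.3, 11.2 and 3.09 CPM in LPS replicates 1, 2 and 3. LPS replicates 1 and 2 were far above all control cultures, whereas LPS replicate 3 lay inside the control range. Mean levels were 3.51 ± 0.979 CPM in control against 8.54 ± 4.72 CPM after LPS (SD, n = 3), and the difference did not pass the test (log2 fold change 1.28, SE 0.53, 95% interval -0.01 to 2.58, edgeR adjusted p = 0.159).

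Within replicate numbers, LPS exceeded control 2.67-fold, 2.88-fold and 1.29-fold. With the replicate number as a block, Edn1 was called higher (log2 fold change 1.14, edgeR adjusted p = 0.0402), in a fit that called 15.4% of all genes higher and 14.9% lower. It was also called without LPS replicate 3 (log2 fold change 1.68, edgeR adjusted p = 0.0132), a fit with 12.6% of genes higher and 9.13% lower by the same rule. In replicates 1 and 2 alone the log2 fold change was 1.49 (edgeR adjusted p = 0.000379), beside 22.6% of genes called higher and 20.4% called lower. Edn1 is typical of endothelial cells. The 8 endothelial markers summed to 40.9 to 75.3 CPM in control and 22.1 to 31.0 CPM in LPS, a sum that Vwf led in control, with 16.5 to 56.7 CPM there and 7.46 to 9.70 CPM in LPS (called lower). The defining members Pecam1 and Cdh5 were low, at 0.593 to 3.06 CPM and 0.221 to 0.661 CPM in control and at 1.14 to 6.12 CPM and 0.593 to 2.88 CPM in LPS, and neither was called. Kdr was higher, at 8.99 to 13.7 CPM in control and 5.80 to 11.6 CPM in LPS, without a call. Emcn was at 13.0, 11.4 and 0.661 CPM in control replicates 1, 2 and 3. In LPS replicates 1, 2 and 3 it was at 6.42, 6.13 and 0.837 CPM, also without a call. The part of endothelial cells in the Edn1 level was not tested.

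Edn2, in adults a ligand mainly of the ovary and intestinal epithelium, was close to the detection limit. It had 9, 11 and 3 counts in control replicates 1, 2 and 3 and 0 counts in every LPS library, which corresponded to 0.381, 0.487 and 0.124 CPM in control. Summed over each group these were 23 against 0 counts. With 3 counts over the group as the limit that a count of 0 allows, the pooled control level was 6.24-fold above the LPS limit. This ratio takes the control counts as exact, and most of them came from replicates 1 and 2. In replicate 3, control (0.124 CPM) lay below the limit of 3 counts in LPS (0.157 CPM), so no decrease can be read there. An exact two-sided permutation test over the 6 libraries gave p = 0.1, the smallest that 20 arrangements can give, so this design cannot pass 0.05. Without the filter on low counts the edgeR adjusted p was 0.0690. The limit of 3 counts covers counting error in LPS only.

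Ednra, the receptor that prefers endothelin-1, was at 60.3, 67.0 and 88.3 CPM in control replicates 1, 2 and 3 and at 26.7, 30.1 and 90.8 CPM in LPS replicates 1, 2 and 3. LPS replicates 1 and 2 were below every control culture, and LPS replicate 3 was above every control culture. The means of 71.9 ± 14.6 CPM in control and 49.2 ± 36.1 CPM after LPS (SD, n = 3) thus hid a split among the LPS cultures. The difference did not pass the test (log2 fold change -0.55, SE 0.50, 95% interval -1.77 to 0.68, edgeR adjusted p = 0.505). Control exceeded LPS 2.26-fold and 2.23-fold in replicates 1 and 2, against 0.973-fold in replicate 3. Ednra was called lower in replicates 1 and 2 alone (log2 fold change -1.14, edgeR adjusted p = 0.000148) and without LPS replicate 3 (log2 fold change -1.34, edgeR adjusted p = 0.00992). LPS replicate 3 also had the highest macrophage marker sum of all libraries. Mrc1, Cd68 and Cx3cr1 were highest in control replicate 3, and the other members of that list in LPS replicate 3. The part of macrophages in the Ednra level was not tested.

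Ednrb, the receptor of enteric neural crest cells, was at 81.9, 66.7 and 68.6 CPM in control replicates 1, 2 and 3 and at 72.3, 71.0 and 71.9 CPM in LPS replicates 1, 2 and 3. All LPS cultures lay within the control range and differed among themselves by very little. Mean levels were 72.4 ± 8.25 CPM in control against 71.7 ± 0.662 CPM after LPS (SD, n = 3). The log2 fold change of -0.01 had a 95% interval of -0.25 to 0.22 (SE 0.10, edgeR adjusted p = 0.939), and its sign turned with relative log expression factors and with DESeq2 (both 0.00) and without control replicate 1 (0.09). Unlike Ednra, Ednrb did not set replicate 3 apart. The glial marker list, of cells of neural crest origin, had 1 of 6 members called lower (S100b, log2 fold change -1.91) and 5 not called. Over all tested genes 6.71% were called lower, and 1 call is too few to tell the share of this list from that.

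Ece1, the membrane metalloprotease that makes active endothelins, was at 215.3, 218.6 and 167.1 CPM in control replicates 1, 2 and 3 and at 175.2, 155.5 and 164.2 CPM in LPS replicates 1, 2 and 3. LPS was the lower in each replicate number, with LPS-to-control ratios of 0.814, 0.712 and 0.983, but the groups overlapped at control replicate 3. Mean levels were 200.3 ± 28.8 CPM in control against 165.0 ± 9.87 CPM after LPS (SD, n = 3; log2 fold change -0.28, SE 0.12, 95% interval -0.59 to 0.03, edgeR adjusted p = 0.187). Ece1 was called lower without control replicate 3 (log2 fold change -0.38, edgeR adjusted p = 0.0454) and in replicates 1 and 2 alone (log2 fold change -0.37, edgeR adjusted p = 0.00595). In replicates 1 and 2 alone, 3 of the 5 tested genes were called lower (Edn3, Ednra and Ece1) and 1 higher (Edn1), in a fit that called 20.4% of all genes lower and 22.6% higher.

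**Figure D2:**
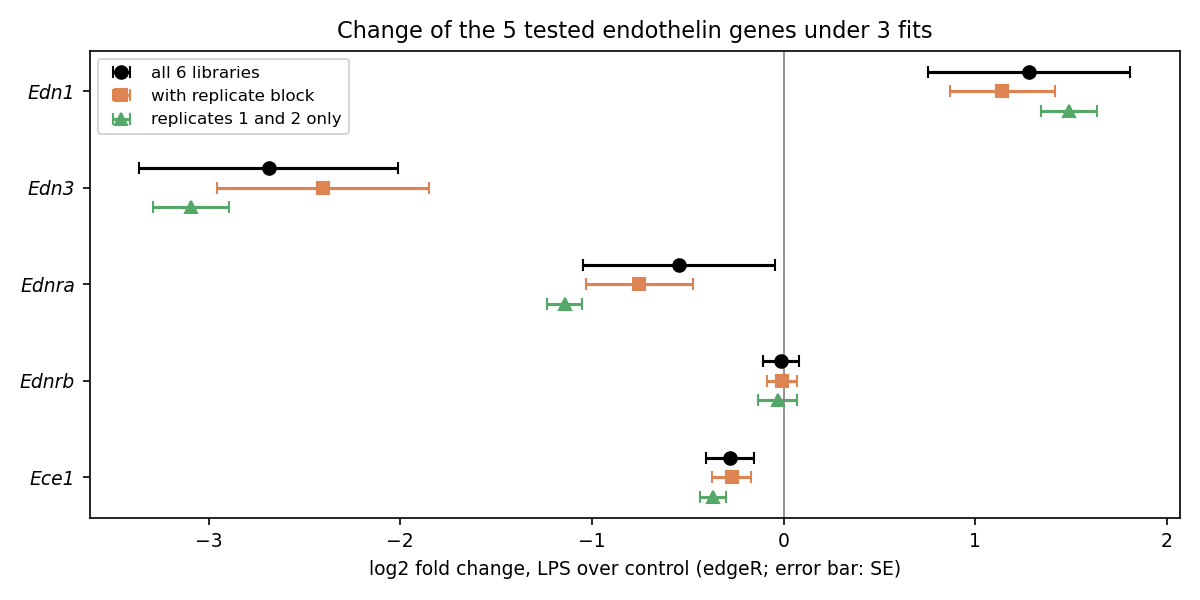
Log2 fold change (LPS over control, edgeR, error bar SE) of the 5 tested endothelin genes with all 6 libraries, with the replicate number as a block, and with replicates 1 and 2 of each group only. Edn1 lies between 1.14 and 1.49 and Edn3 between -3.09 and -2.40, Ednra moves from -0.55 to -1.14 when replicate 3 is left out, and Ednrb stays at 0.

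To compare levels between genes, CPM were divided by the length in kilobases (kb) of the union of annotated exons. In control, Ece1 was highest with 37.8 ± 5.43 CPM per kb, followed by Ednrb with 17.0 ± 1.93, Ednra with 13.1 ± 2.67, Edn3 with 2.77 ± 1.89, Edn1 with 1.64 ± 0.458 and Edn2 with 0.226 ± 0.128 CPM per kb (SD, n = 3). The cultures thus carried far more transcript of the enzyme and the receptors than of any ligand. Ednrb and Ednra overlapped in this order, as did Edn3 and Edn1. With the longest transcript as length, Ednra (19.8 CPM per kb) was above Ednrb (17.6 CPM per kb).

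After LPS the order was Ece1 with 31.1 ± 1.86 CPM per kb, Ednrb with 16.8 ± 0.155, Ednra with 8.98 ± 6.58, Edn1 with 3.99 ± 2.21 and Edn3 with 0.429 ± 0.0192 CPM per kb (SD, n = 3), and Edn2 at 0. Edn1 was now above Edn3 with no overlap. Its range of 1.44 to 5.29 CPM per kb reached into that of Ednra, 4.87 to 16.6 CPM per kb. In LPS replicate 1 Edn1 (5.29 CPM per kb) was above Ednra (4.87 CPM per kb), but not with the longest transcript as length, where Ednra was at 7.36 CPM per kb in that culture and at 7.36 to 25.0 CPM per kb over the group.

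The make-up of the ligand pool differed between the groups. Edn1 contributed 35.7%, 28.1% and 59.7% of the summed per-kb ligand level in control replicates 1, 2 and 3, against 92.2%, 92.4% and 78.0% in LPS replicates 1, 2 and 3. Every LPS culture exceeded every control culture. Edn3 contributed 59.6%, 66.8% and 35.8% in control and 7.75%, 7.65% and 22.0% in LPS, in the same order of replicates. Edn3 was the leading ligand in control replicates 1 and 2, and Edn1 in the other 4 cultures.

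Among receptors, the ratio of Ednrb to Ednra per kb was 1.74, 1.28 and 0.998 in control replicates 1, 2 and 3, against 3.48, 3.03 and 1.02 in LPS replicates 1, 2 and 3. With the longest transcript as length the ratios were 1.20, 0.879 and 0.686 in control and 2.39, 2.08 and 0.699 in LPS, so whether Ednrb or Ednra led in LPS replicate 3 and in control replicate 2 depended on this choice. Under both lengths LPS replicates 1 and 2 had the highest ratios and the cultures numbered 3 the lowest. Ednrb per kb varied little between cultures, and the ratio was high where Ednra was low. These shares and ratios are given as descriptions, without a test.

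**Figure D3:**
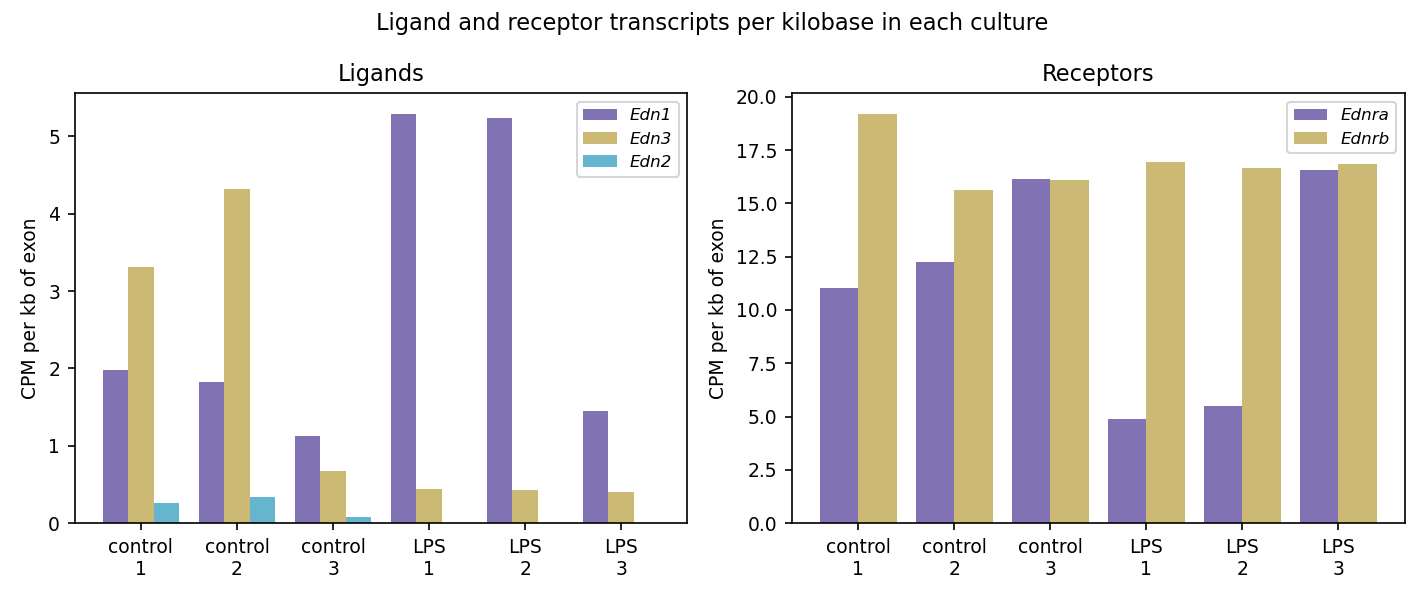
Level in CPM per kb of exon of the ligand genes (left) and receptor genes (right) in each of the 6 cultures. Edn1 (5.29 and 5.24 CPM per kb) far exceeds Edn3 in LPS replicates 1 and 2, and Ednrb far exceeds Ednra there, while the receptors are nearly equal in the cultures numbered 3.

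Other genes that make or remove endothelins were followed with a list of 11, of which 7 were tested, 1 was called higher and 0 lower (9.09% and 6.71% of all genes), and the median log2 fold change was 0.37 against -0.02 over all tested genes. Furin, the convertase that cuts the precursors to big endothelins, was at 161.1, 163.5 and 205.1 CPM in control replicates 1, 2 and 3 and at 249.1, 239.4 and 239.6 CPM in LPS replicates 1, 2 and 3, with no overlap (log2 fold change 0.46, SE 0.11, edgeR adjusted p = 0.0458). That call was lost with upper-quartile factors (edgeR adjusted p = 0.0699), library size alone (0.0839) or no filter (0.0755). It was also lost in edgeR fits without control replicate 1 (0.149), control replicate 2 (0.173), LPS replicate 1 (0.135), LPS replicate 2 (0.139) or LPS replicate 3 (0.0577). Over all genes, the fits without replicate 1 or 2 of either group called 379 to 619 higher, against 1384 with all libraries. The fit without LPS replicate 3 called 1964 higher.

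Mme, which encodes neprilysin, a peptidase that degrades endothelins, was at 4.41, 4.74 and 1.98 CPM in control replicates 1, 2 and 3 and at 15.3, 16.4 and 6.54 CPM in LPS replicates 1, 2 and 3. Each LPS culture was above each control culture, and replicate 3 was lowest in both groups, as for Edn1. The log2 fold change of 1.78 (SE 0.48) just missed the threshold (edgeR adjusted p = 0.0561). It passed with the replicate block (log2 fold change 1.77, edgeR adjusted p = 0.00198), with DESeq2 (adjusted p = 0.0021), in replicates 1 and 2 alone (edgeR adjusted p = 9.28e-05) and without LPS replicate 3 (edgeR adjusted p = 0.0184).

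The convertase gene Pcsk6 was at 86.0, 67.4 and 27.2 CPM in control replicates 1, 2 and 3 and at 28.2, 22.1 and 13.5 CPM in LPS replicates 1, 2 and 3, lower within each number but overlapping between groups (log2 fold change -1.50, edgeR adjusted p = 0.0884). It was called with the replicate block (log2 fold change -1.42, edgeR adjusted p = 0.00541), with DESeq2 (adjusted p = 0.0118) and without control replicate 3 (edgeR adjusted p = 0.0275). Pcsk5 and Pcsk7, of the same convertase family, had log2 fold changes of 1.09 and 0.37 (edgeR adjusted p = 0.107 and 0.122), and Pcsk7 was called with the block (edgeR adjusted p = 0.0380) and Pcsk5 with DESeq2 (adjusted p = 0.0348). LPS replicate 3 carried much of both values, which were 0.57 for Pcsk5 and 0.23 for Pcsk7 without it. Ece2, a relative of Ece1 that works at acid pH, was at 8.93 to 10.4 CPM in control and 11.8 to 12.6 CPM in LPS without a call (log2 fold change 0.32, edgeR adjusted p = 0.114). Ecel1, a relative with no established role in endothelin conversion, was at 10.9 to 22.6 CPM in control and 6.49 to 12.0 CPM in LPS (log2 fold change -0.83, edgeR adjusted p = 0.153; with the block, 0.00745). The blood-group protease gene Kel and the mast cell chymase gene Mcpt4 were at 0 counts in all libraries, and Mmel1 and Cma1 were at or near the detection limit.

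Downstream of the receptors, 22 genes of G protein coupling and its shut-off were all tested, and 0 were called higher and 3 lower, against 9.09% and 6.71% of all genes, with a median log2 fold change of 0.10. The largest difference among those called was in Rgs2, a negative regulator of Gq. It was at 35.8, 40.4 and 76.0 CPM in control replicates 1, 2 and 3 and at 7.07, 7.13 and 14.1 CPM in LPS replicates 1, 2 and 3, so every LPS culture was far below every control culture (log2 fold change -2.42, SE 0.42, edgeR adjusted p = 0.0184). The others were the inositol trisphosphate receptor genes Itpr1 (log2 fold change -0.69, edgeR adjusted p = 0.0396) and Itpr3 (log2 fold change -0.59, edgeR adjusted p = 0.0309), which fall outside the rule for named genes and were chosen after their values were seen. The remaining gene of that family, Itpr2, had the opposite sign without a call (14.6 to 21.3 CPM in control and 23.8 to 27.9 CPM in LPS, log2 fold change 0.51, edgeR adjusted p = 0.0897), and was called higher with the replicate block.

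The 11 genes tied to the enteric nervous system, many of them linked to Hirschsprung disease with Edn3 and Ednrb, had 0 called higher, 3 lower and 8 not called, with a median log2 fold change of -0.19, beside the same shares of 9.09% and 6.71% over all genes. Sema3d, an axon guidance gene, was at 29.9, 30.9 and 18.6 CPM in control replicates 1, 2 and 3 and at 10.3, 8.36 and 8.43 CPM in LPS replicates 1, 2 and 3 (log2 fold change -1.55, edgeR adjusted p = 0.0112). Gfra1, which encodes the co-receptor for GDNF, was at 239.8, 201.8 and 137.7 CPM in control replicates 1, 2 and 3 and at 90.4, 86.7 and 107.8 CPM in LPS replicates 1, 2 and 3 (log2 fold change -1.02, edgeR adjusted p = 0.0310). For both, control lay wholly above LPS.

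Several of these lower calls were lost when 1 library was left out, in fits that called 112 to 224 of all genes lower against 1022 with all libraries. None passed without control replicate 2 or without LPS replicate 2, and 1 passed without control replicate 1 or without LPS replicate 1. The log2 fold changes stayed of like size, at -2.56 to -2.25 for Rgs2, -1.50 to -1.42 for Sema3d and -0.99 to -0.83 for Gfra1 in the fits that lost the call. For Rgs2 the edgeR adjusted p was 0.0655 without control replicate 2, 0.0708 without LPS replicate 1 and 0.0818 without LPS replicate 2. For Sema3d it was 0.0521 without control replicate 1, 0.0584 without control replicate 2 and 0.0595 without LPS replicate 2. For Gfra1 it was 0.0897 without control replicate 1, 0.121 without control replicate 2, 0.105 without LPS replicate 1 and 0.120 without LPS replicate 2. With the replicate block, 3 higher and 2 lower calls were made among the processing genes, 5 higher and 6 lower among the coupling genes, and 3 higher and 4 lower among the enteric nervous system genes, where 15.4% of all genes were called higher and 14.9% lower.

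**Figure D4:**
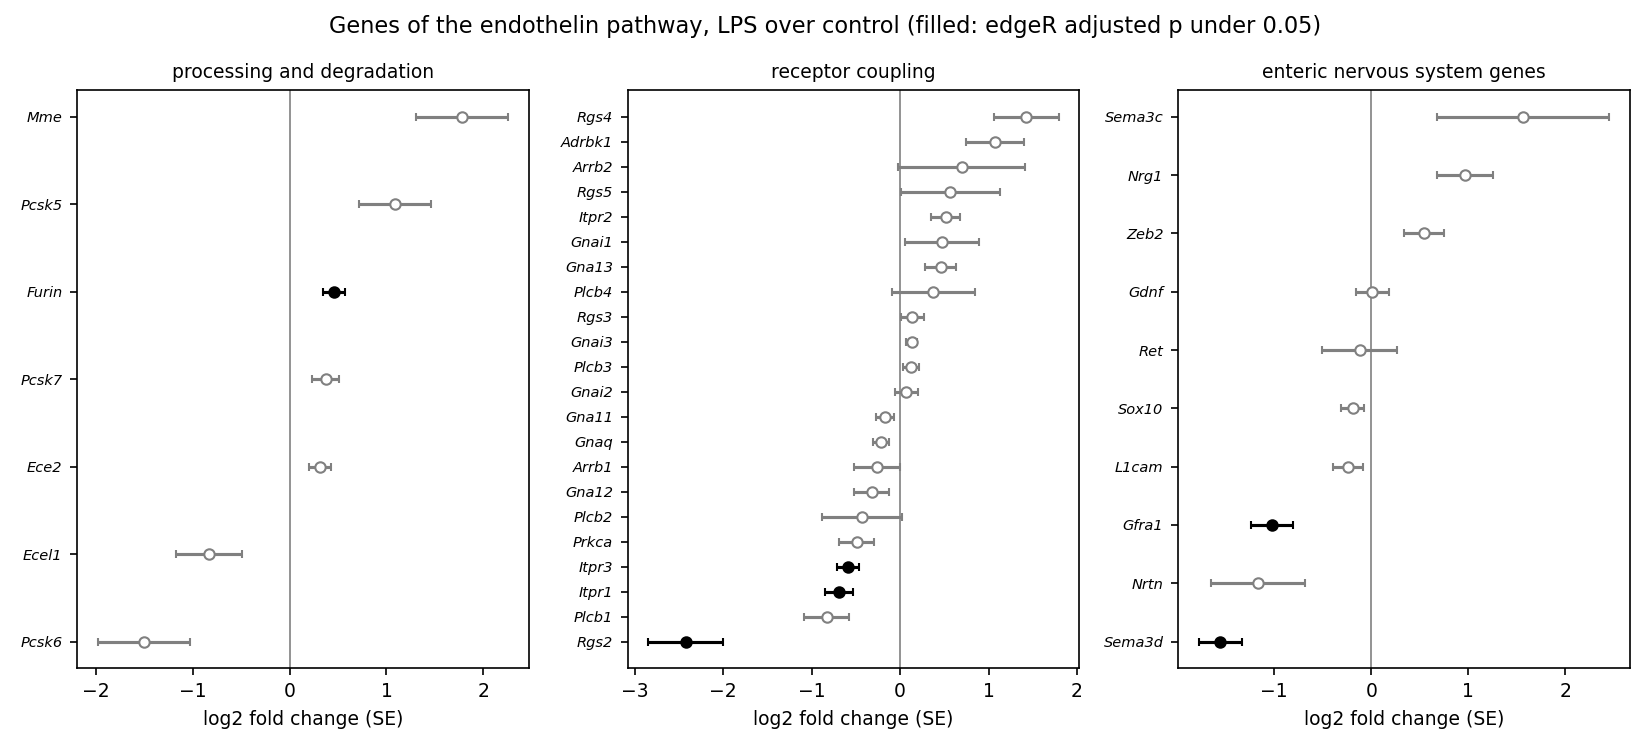
Log2 fold change (LPS over control, error bar SE) of tested genes of the processing, coupling and enteric nervous system lists; filled points have an edgeR adjusted p under 0.05. Furin is the single filled point above 0, and Rgs2 (-2.42), Sema3d (-1.55) and Gfra1 (-1.02) are the lowest of the 5 filled points below it.

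The genes whose levels followed the endothelin genes most closely were sought by Pearson's r of log2 CPM over the 6 libraries among 11480 genes with at least 5 CPM on average. These libraries share the treatment split and the apartness of replicate 3, so high values are common and the r values are descriptions. Edn1 was followed best by Syt17 (r = 0.9994), Cited2 (r = 0.998) and Fut8 (r = 0.998), and 297 genes had an r above 0.95. Edn3 was followed best by Hdgfrp3 (r = 0.998), Kcnk3 (r = 0.996) and Kit (r = 0.995), with 236 genes above 0.95. Ednra was followed by Lfng (r = 0.996) and Atg10 (r = 0.994), with 256 genes above 0.95, and Ece1 by 6330403K07Rik (r = 0.990), Cyp2j9 and Rhobtb2 (both r = 0.987), with 109 genes. Ednrb, the one with the flattest levels, was followed by Trim46 (r = 0.971), Slc25a14 (r = 0.957) and Fam193b (r = 0.947), and only 2 genes were above 0.95.

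The 250 bases before the start sites of Edn1 and Edn3 are printed because these ligands had opposite signs after LPS. Both come from RefSeq (GRCm38.p6) and run 5′ to 3′ along the plus strand up to the base before the annotated start, with capitals for the searched motifs that were found.
Edn1, chr13:42301226-42301475: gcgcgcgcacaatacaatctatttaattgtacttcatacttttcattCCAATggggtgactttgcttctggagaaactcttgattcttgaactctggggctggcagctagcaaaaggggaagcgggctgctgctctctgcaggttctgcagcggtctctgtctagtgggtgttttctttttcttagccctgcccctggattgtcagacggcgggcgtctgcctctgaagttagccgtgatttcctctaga
Edn3, chr2:174760369-174760618: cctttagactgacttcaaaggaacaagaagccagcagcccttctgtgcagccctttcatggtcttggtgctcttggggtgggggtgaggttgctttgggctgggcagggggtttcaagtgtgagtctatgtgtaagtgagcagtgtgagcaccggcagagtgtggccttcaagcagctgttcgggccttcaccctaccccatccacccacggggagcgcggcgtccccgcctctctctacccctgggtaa
GC content was 50.4% in the Edn1 window and 59.2% in the Edn3 window, against a median of 52.4% over 32851 such windows. Both strands were searched for a TATA box (TATAAA, present in 12.4% of all windows), a CCAAT box (CCAAT, 33.8%), a GC box (GGGCGG, 32.7%), the AP-1 motif (TGANTCA, 6.75%), the cAMP response element (TGACGTCA, 1.55%), the NF-κB consensus (3.90%) and the interferon-gamma-activated site (TTCNNNGAA, 7.02%). The Edn1 window held 1 CCAAT box, 203 bases before the start, and the Edn3 window held none of these letter patterns. This describes these windows and says nothing about which factors bind there.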

How the data were processed

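Poly(A) RNA of 3 control and 3 LPS cultures was sequenced on stranded libraries. The deposited values are raw counts per gene. Per the submitters' processing notes, the authors used cutadapt 1.15, Bowtie2 2.3.3.1, STAR 2.5.2b, SAMtools 1.5 and featureCounts 1.5.3 with GRCm38; the strand setting of the counting was not stated. The table of the whole series repeats these counts and was not used.

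LPS was compared with control by the edgeR 4.0.16 quasi-likelihood F-test (R 4.3.3), two-sided, with group as the single term, trimmed mean of M-values (TMM) factors, filterByExpr (minimum count 10, minimum total 15) and Benjamini-Hochberg adjustment over all 15226 genes that passed. CPM use TMM-corrected library sizes, so 3 counts correspond to 0.124 to 0.167 CPM, and log2 CPM used a prior count of 2. Exon lengths come from GENCODE M21. The test was checked on simulated counts. These had no shared shift of replicate 3, so the check does not cover that feature of the data.

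Alternatives were relative log expression, upper-quartile or no scaling factors, no filter, at least 10 counts in every library, DESeq2 1.42.0, limma-voom (limma 3.58.1), the replicate number as a block, each library left out, and, added after the data were seen, replicates 1 and 2 alone. Deviations from group means correlated at r = 0.51, 0.33 and 0.61 between control and LPS libraries numbered 1, 2 and 3, so the fit with the block is given beside results whose call it changes, while the main comparison has no block; the mismatched libraries 1 and 2 gave 0.42 and 0.32, so these values set replicate 3 apart but do not tell 1 from 2, and the labels do not say what a number marks.

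The genes and lists were chosen with earlier results of these data known. Named genes were the 6 endothelin genes, tested genes of the processing list, called genes of the other lists with an absolute log2 fold change of at least 1 (at most 3 per direction), the 3 genes most correlated with each tested member, and marker genes. Adrbk1 stands for Grk2. Some genes that entered the tests and counts are not reported here by themselves.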

Additional observations from a re-analysis of the deposited data

How the results depend on the processing

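The count of endothelin genes called lower (1) became 0 with limma-voom and 3 in replicates 1 and 2 alone, and ranged from 0 to 2 when 1 library was left out. The count called higher (0) became 1 with the replicate block and 1 in replicates 1 and 2 alone, and ranged from 0 to 1 when 1 library was left out. For the further pathway lists, the count called higher (1) became 2 with relative log expression factors, 0 with upper-quartile factors, 0 with library size alone, 0 without a filter, 7 with DESeq2, 11 with the replicate block and 15 in replicates 1 and 2 alone, and ranged from 0 to 2 over the left-out libraries. The count called lower (6) became 12 with the replicate block and 16 in replicates 1 and 2 alone, and ranged from 0 to 8. Over all genes, the block called 15.4% higher and 14.9% lower and replicates 1 and 2 called 22.6% and 20.4%, against 9.09% and 6.71% in the fit of all libraries. DESeq2 called 2079 genes higher and 1673 lower, against 1384 and 1022 in the fit of all libraries. Higher calls numbered 1437 with relative log expression factors, 1050 with upper-quartile factors, 986 with library size alone and 1114 without a filter. Limma-voom called 921 lower. The left-out fits called 379 to 1964 genes higher and 112 to 1426 lower. The counts of the lists are to be read beside these totals. The causes were not tested. Of 225 log2 fold changes over 15 genes and the alternatives, 3 turned sign, all for Ednrb: 0.002 with relative log expression factors, 0.0019 with DESeq2, and, over the left-out libraries, a range of -0.062 to 0.0922. The block changed the call of Edn1, Mme, Pcsk6, Pcsk7 and Ecel1 and of no other gene among these 15. Over all tested genes, the scaling moved the median from a log2 fold change of -0.02 to -0.12 (upper quartile) and -0.18 (library size alone). With 3 cultures a group and 1 pair apart, differences of the size of the Ednra interval could not be resolved, and at 0 counts Edn2 cannot be followed below its limit.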
